A study of Mus musculus with 20 samples.

Results

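The genes described here are 44 mouse genes of DNA replication and mitosis, chosen by symbol. All 44 were found in both expression tables of the series, among 22102 entries in the time course table and 42458 in the table of stem cell and fibroblast lines. By role they comprise 13 genes of origin licensing and the replicative helicase, 15 of synthesis at the fork, 4 of nucleotide supply and 12 of mitosis. The series asked what depletion of the long noncoding RNA Braveheart does to heart muscle differentiation of mouse embryonic stem cells (mESC), and 20 of its RNA sequencing libraries were used. In the time course, 12 libraries came from E14 mESC (129/Ola, embryonic) that carried a lentiviral pLKO.1 short hairpin RNA and had been selected with puromycin: hairpin A, hairpin B or a scrambled hairpin, with 1 library of each culture at days 0, 3, 6 and 9. The protocol names hairpins directed against Braveheart, and the labels of hairpins A and B give the letter alone. The other 8 libraries are called the discovery set here. They came from miPS cells (an induced pluripotent line labelled fully reprogrammed, 1 library), untreated wild-type mESC of the lines E14 (129/Ola, 2 libraries) and v6.5 (129/svJae x C57BL/6, 2 libraries), partially reprogrammed fibroblast lines (11.3 and 11.5, 1 library each) and mouse embryonic fibroblasts (MEF, 1 library). The miPS line and both partially reprogrammed lines carried Oct4-GFP and retroviral Oct4, Sox2, c-myc and Klf4 and derived from 129/svJae x C57BL/6 MEF with Oct4-GFP, the cells of the MEF library. The mESC of the discovery set and the miPS cells were grown on irradiated MEF that were removed by pre-plating, and the partially reprogrammed lines were grown without feeders. The labels describe both an embryoid body and a directed protocol for every time course sample, without saying which was used. The libraries of a hairpin are called a culture here, though their titles give only a hairpin and a day. No label states that replicates were separate cultures. The p-values therefore measure the spread among these libraries alone, which may be technical, and hairpins A and B, taken as the replicates of depletion, are different hairpins.

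A cell copies its genome once per cycle. Cdc6 and Cdt1 load the ring of Mcm2 to Mcm7 on replication origins, and Mcm10 and the GINS complex (Gins1 to Gins4) help to turn that ring into a running helicase. Polymerases, the sliding clamp Pcna and its loader (Rfc1 to Rfc5) then build the new strands from nucleotides that ribonucleotide reductase, thymidylate synthase and thymidine kinase supply. Mitosis follows under cyclin B and Cdk1, the kinases Plk1, Aurka and Aurkb, the spindle checkpoint proteins Bub1 and Bub1b, and Cdc20, which activates the ubiquitin ligase that ends metaphase. Mouse embryonic stem cells are known for fast division with a short first gap phase, which lengthens as cells leave pluripotency. In bulk RNA, fewer dividing cells and less RNA per dividing cell cannot be told apart.

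Total expected counts in the discovery set ran from 7536503 to 23662593 reads per library, and relative depth in the time course, read from the steps of low values, ran from 0.688 to 1.13 times that of scrambled day 0. All 528 time course values of the 44 genes had the authors' status "OK". Among the 6 pluripotency markers (all measured, none at 0), the summed level at day 9 was 884 FPKM in hairpin A, 7244 FPKM in hairpin B and 749 FPKM in scrambled cells. It was 5394 to 7273 FPKM in the day 0 libraries, so the hairpin B library labelled day 9 stood apart from the others of that day. At day 6 the same sum was 1250 FPKM in hairpin A, 4561 FPKM in hairpin B and 968 FPKM in scrambled cells. The summed level of 5 cardiomyocyte markers at day 9 was 70.3 FPKM in hairpin A, 11.2 FPKM in hairpin B and 418 FPKM in scrambled cells, against 3.3 to 4.2 FPKM at day 0, where 1 marker was at 0 in hairpin A. Results that rest on the hairpin B libraries of days 6 and 9 are therefore given with and without them. In the discovery set the v6.5 libraries differed from each other by a median of 0.742 on the log2 scale across genes, against 0.210 for the E14 pair and 0.380 for the partially reprogrammed pair. Levels are in FPKM (fragments scaled by transcript length and by sequencing depth) or TPM (the same with a fixed total per library), both per length, and differences are on a log2 scale with a standard error (SE). A gene is called changed where its Benjamini-Hochberg adjusted p over all genes tested was under 0.05.

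Over differentiation, 5 of the 6 subunits of the helicase ring, the loading factor Cdt1, the clamp loader subunit Rfc5 and the mitotic regulators Plk1 and Cdc20 fell at day 9 against day 0, while Gins3, Rfc3 and the large ribonucleotide reductase subunit Rrm1 had differences of the other sign that did not pass. With limma on log2(FPKM + 1) over the 12 libraries, 12 of the 44 genes fell and 0 rose. By comparison, 6.22% of all 14108 genes tested fell and 10.3% rose. The 12 were Mcm2, Mcm3, Mcm4, Mcm5, Mcm6, Cdt1, Gins1, Rfc5, Lig1, Aurka, Plk1 and Cdc20. The median difference of the 44 genes was -0.25, with 32 below 0, beside a median of 0.10 over all genes tested. This count rested on few libraries: it was 0 without hairpin A day 0, hairpin A day 9, scrambled day 0 or scrambled day 9, where 0.339% to 0.683% of all genes fell. It was 4 without the day 3 library of any culture or the scrambled day 6 library (2.17% to 2.77% of all genes fell) and 7 without hairpin A day 6 (3.83% of all genes fell). Without hairpin B day 9, 21 fell and 4 rose, 25 in all, where 21.7% of all genes fell and 31.7% rose, so the count of members moved with that of all genes. With culture as a replicate block 14 fell and 3 rose (Gins3, Rpa3 and Rrm1), where 11.1% of all genes fell and 18.8% rose.

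**Figure D1:**
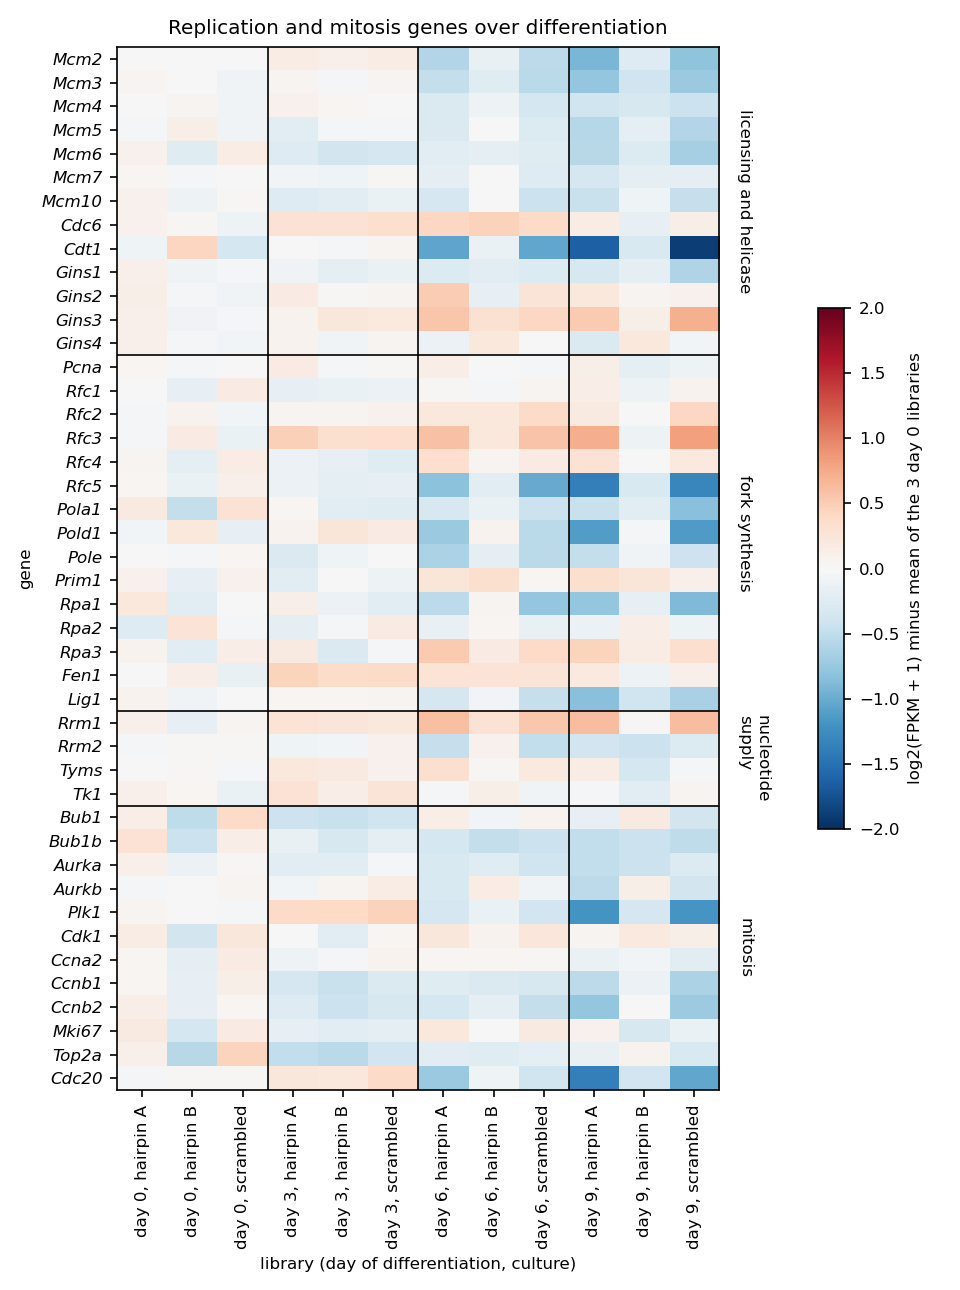
Heat map of the 44 genes (rows, by role) in the 12 time course libraries (columns, by day and culture). Colour gives log2(FPKM + 1) minus the mean of the 3 day 0 libraries, red for higher and blue for lower, and Cdt1, Rfc5, Pold1, Plk1 and Cdc20 are the darkest blue at day 9 in hairpin A and scrambled cells but not in hairpin B cells.

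Licensing factors held most of the falls, with 7 of 13 called at day 9 and a median difference of -0.37. Cdt1 (mm9 chr8:125091914-125097030), which loads the helicase and is destroyed once origins fire, had 91.6, 131 and 75.8 FPKM at day 0 in hairpin A, hairpin B and scrambled cells, 97.7, 93.9 and 100.2 at day 3, 46.1, 88.0 and 46.6 at day 6, then 30.7, 78.2 and 25.4 at day 9. Hairpin A and scrambled cells thus held less than every day 0 library from day 6 on, while the hairpin B value of day 9 lay above the scrambled value of day 0. Its mean was 44.8 ± 29.1 FPKM at day 9 and 99.4 ± 28.3 FPKM at day 0 (SD, n = 3 each), a log2 difference of -1.27 (SE 0.36, limma adjusted p = 0.0436). Mcm2 (mm9 chr6:88833467-88848774), a subunit of the helicase ring, had 156, 156 and 159 FPKM at day 0 in hairpin A, hairpin B and scrambled cells, 173, 169 and 174 at day 3, 104, 141 and 109 at day 6, then 82.6, 132 and 89.5 at day 9. All 3 day 9 libraries lay below all 3 day 0 libraries, hairpin B least so, and the log2 difference was -0.66 (SE 0.17, limma adjusted p = 0.0375). The 6 subunits of the ring shared the sign. Log2 differences at day 9 were -0.66 for Mcm2, -0.64 for Mcm3, -0.39 for Mcm4, -0.45 for Mcm5, -0.49 for Mcm6 and -0.24 for Mcm7, of which Mcm7 missed the threshold (limma adjusted p = 0.0897). Cdc6, the ATPase that works with Cdt1, had the smallest day 9 difference of the group, 0.03 (SE 0.11), with 15.9 ± 1.94 FPKM at day 9 and 15.5 ± 1.02 FPKM at day 0 (SD, n = 3 each). Its libraries ran from 14.4 to 16.4 FPKM at day 0, 19.1 to 19.5 at day 3, 20.4 to 21.7 at day 6 and 13.7 to 17.2 at day 9, so day 3 and day 6 lay above day 0 without overlap and day 9 overlapped it. Within GINS the subunits differed: Gins1 fell by 0.37 on the log2 scale (SE 0.11, limma adjusted p = 0.0476), Gins2 stood at 0.12 and Gins4 at -0.04, and Gins3 at 0.45 (SE 0.16, limma adjusted p = 0.0709).

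At the fork, 2 of 15 genes fell at day 9 and the median difference was -0.03, with genes on either side of 0. Rfc5 (mm9 chr5:117829153-117839032), a small subunit of the clamp loader, had 117, 103 and 122 FPKM at day 0 in hairpin A, hairpin B and scrambled cells, 105, 99.3 and 102 at day 3, 63.6, 97.9 and 56.2 at day 6, then 43.6, 91.3 and 45.5 at day 9. The fall was large in hairpin A and scrambled cells and slight in hairpin B cells, with a log2 difference of -0.99 (SE 0.27, limma adjusted p = 0.0404). Rfc3, another small subunit of the same loader, had 79.7, 44.5 and 85.3 FPKM at day 9 and 47.0, 53.4 and 43.5 FPKM at day 0 in hairpin A, hairpin B and scrambled cells. Hairpin B alone had the lower value at day 9, and the log2 difference of 0.48 did not pass (SE 0.22, limma adjusted p = 0.130). Rfc1, Rfc2 and Rfc4 stood at 0.04, 0.20 and 0.17. The genes of this complex therefore did not share a sign. Pold1, the catalytic subunit of the lagging strand polymerase, had 21.0 FPKM in hairpin A, 46.1 in hairpin B and 20.8 in scrambled cells at day 9, against 44.9, 54.1 and 41.7 at day 0, and its log2 difference of -0.75 (SE 0.29) missed the threshold (limma adjusted p = 0.0841). Pola1 of the priming polymerase (-0.50), Pole of the leading strand polymerase (-0.32) and Rpa1, the large subunit of the single-strand binding complex (-0.61), also did not pass. Lig1, which seals nicks between lagging strand fragments, had 49.8 FPKM in hairpin A, 68.2 in hairpin B and 57.2 in scrambled cells at day 9, all below the 85.9 to 94.2 FPKM of day 0 (log2 difference -0.62, SE 0.13, limma adjusted p = 0.0232). The sliding clamp Pcna was the most abundant of the 44 in the time course, between 465 and 594 FPKM in the 12 libraries, and differed by -0.05 (SE 0.11) at day 9. Rpa2, a smaller subunit of the single-strand binding complex, had the smallest day 9 difference of the fork genes, -0.03 (SE 0.16), within a range of 54.5 to 79.5 FPKM.

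None of the 4 nucleotide supply genes passed at day 9. Rrm2, the small subunit of ribonucleotide reductase, had 121, 117 and 131 FPKM at day 9 in hairpin A, hairpin B and scrambled cells, all below the 153 to 160 FPKM of day 0, with a log2 difference of -0.36 (SE 0.15, limma adjusted p = 0.103). Rrm1, the large subunit of the same enzyme, had 109, 72.3 and 110 FPKM at day 9 against 76.3, 63.9 and 74.6 at day 0 in hairpin A, hairpin B and scrambled cells, with a difference of 0.42 (SE 0.16, limma adjusted p = 0.0867). The subunits of this enzyme thus had opposite signs in each culture. Tyms, thymidylate synthase, stood at -0.08 (SE 0.14) and Tk1, thymidine kinase, at -0.06 (SE 0.11).

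In mitosis, 3 of 12 genes fell at day 9 and 11 of 12 were below 0, with a median of -0.33. Cdc20 (mm9 chr4:118105505-118109948) had 142, 149 and 148 FPKM at day 0 in hairpin A, hairpin B and scrambled cells, 172, 169 and 191 at day 3, 87.0, 138 and 110 at day 6, then 56.0, 111 and 70.6 at day 9. Plk1 (mm9 chr7:129302950-129313389) had 102, 97.3 and 95.01 FPKM at day 0, 128, 129 and 136 at day 3, 77.3, 89.3 and 74.9 at day 6, then 42.4, 77.3 and 42.6 at day 9 in hairpin A, hairpin B and scrambled cells. Both genes were highest at day 3 in every culture and lowest at day 9 in every culture. Their log2 differences at day 9 were -0.93 for Cdc20 (SE 0.24, limma adjusted p = 0.0358) and -0.90 for Plk1 (SE 0.20, limma adjusted p = 0.0240). Aurka, a kinase of the spindle poles, fell by 0.40 on the log2 scale (SE 0.10, limma adjusted p = 0.0355). Bub1 had the smallest difference of the mitotic genes, -0.12 (SE 0.21). Its day 9 values were 71.6, 91.0 and 62.1 FPKM in hairpin A, hairpin B and scrambled cells, and its day 0 values were 88.0, 56.2 and 105 FPKM, so hairpin B was the highest library of day 9 and the lowest of day 0. Top2a, the topoisomerase that untangles sister chromosomes, had 261, 304 and 233 FPKM at day 9 and 311, 197 and 394 FPKM at day 0 in hairpin A, hairpin B and scrambled cells, the same order of cultures as Bub1 on each day. Mki67, a widely used marker of cycling cells, stood at -0.13 (SE 0.16) and Cdk1 at 0.12 (SE 0.14).

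**Figure D2:**
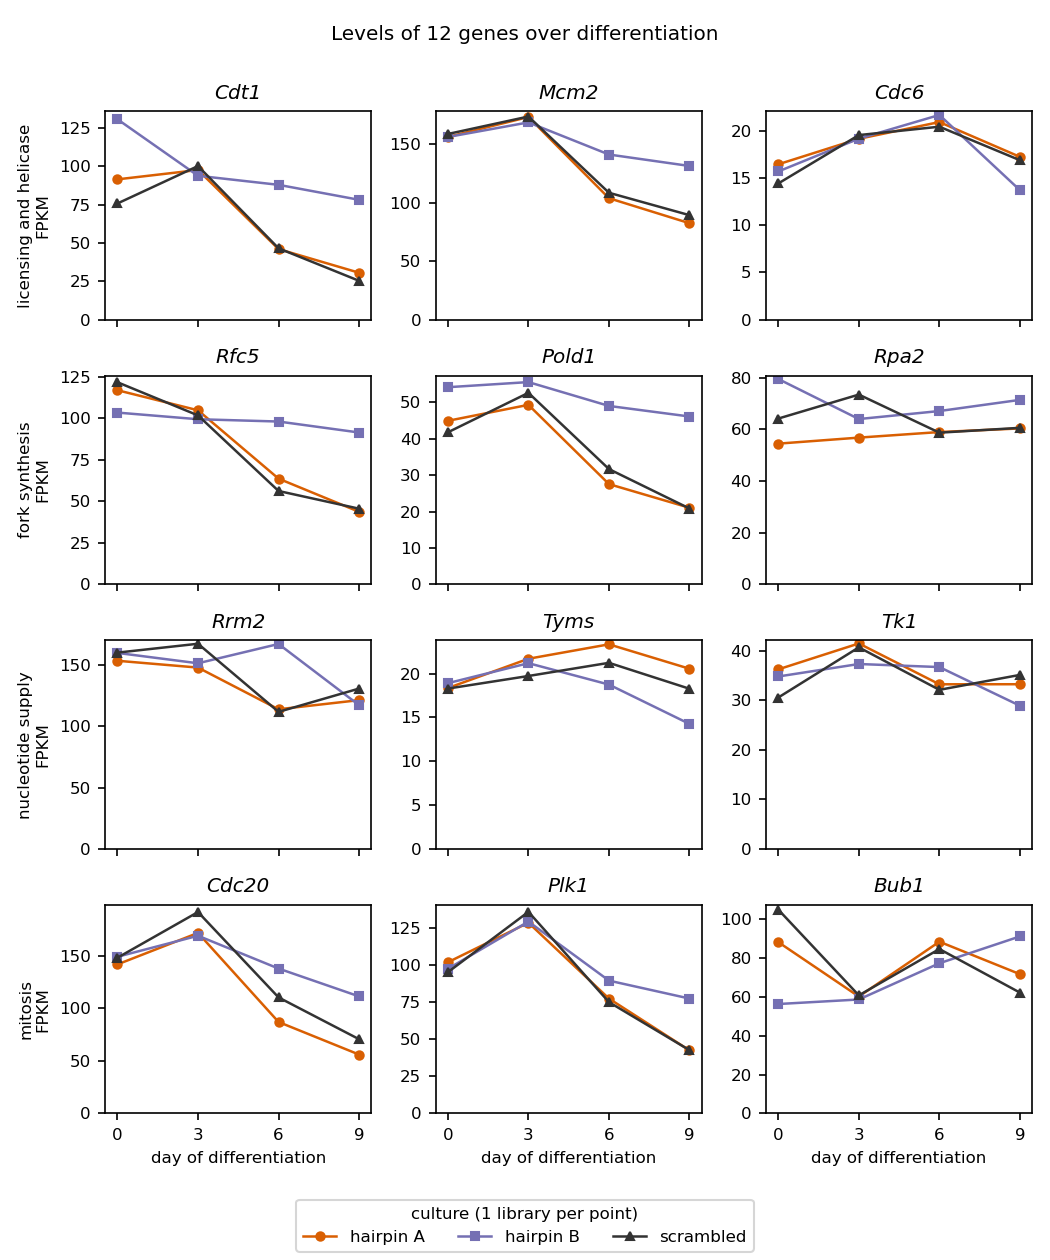
FPKM of 12 genes against the day of differentiation, 1 line per culture and 1 library per point, each axis starting at 0. The rows show the 4 roles, each with the pair of genes with the largest negative difference and the gene of smallest difference at day 9, and the hairpin B line stays above the others at days 6 and 9 for Cdt1, Mcm2, Rfc5, Pold1, Cdc20 and Plk1.

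The start sites of the genes with the largest negative differences at day 9 in 3 roles were set side by side, because many replication genes are known to be driven through E2F sites and many mitotic genes through CHR elements with CCAAT boxes. RefSeq promoters of 300 bases were found for 36 of the 44 genes (250 before and 50 after the annotated start, build GRCm38.p6, which differs from the mm9 of the expression tables). Those of Cdt1 and Mcm2 (licensing), Rfc5 and Pold1 (fork) and Cdc20 and Plk1 (mitosis) are shown 5′ to 3′. Capitals mark matches on either strand. The E2F-type motifs were TTCCCGC, its variant TTCGCGC, the further variant TTGCCGC and the related TTGGCGC, the CHR-type motifs were TTTGAA with its variant TTCGAA, and the CCAAT box was CCAAT itself.
Cdt1 promoter, chr8:122567765-122568064, plus strand: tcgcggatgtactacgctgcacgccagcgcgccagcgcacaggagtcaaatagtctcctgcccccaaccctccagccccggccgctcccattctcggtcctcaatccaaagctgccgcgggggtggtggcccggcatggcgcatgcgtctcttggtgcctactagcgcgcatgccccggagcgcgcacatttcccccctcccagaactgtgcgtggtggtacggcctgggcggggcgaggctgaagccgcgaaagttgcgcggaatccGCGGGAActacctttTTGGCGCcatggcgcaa
Mcm2 promoter, chr6:88898731-88899030, minus strand: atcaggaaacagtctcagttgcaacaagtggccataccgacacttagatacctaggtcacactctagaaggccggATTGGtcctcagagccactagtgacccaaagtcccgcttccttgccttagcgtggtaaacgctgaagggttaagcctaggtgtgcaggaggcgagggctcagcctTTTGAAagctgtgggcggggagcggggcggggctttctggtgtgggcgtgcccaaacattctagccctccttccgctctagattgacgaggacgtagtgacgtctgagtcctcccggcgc
Rfc5 promoter, chr5:117388974-117389273, minus strand: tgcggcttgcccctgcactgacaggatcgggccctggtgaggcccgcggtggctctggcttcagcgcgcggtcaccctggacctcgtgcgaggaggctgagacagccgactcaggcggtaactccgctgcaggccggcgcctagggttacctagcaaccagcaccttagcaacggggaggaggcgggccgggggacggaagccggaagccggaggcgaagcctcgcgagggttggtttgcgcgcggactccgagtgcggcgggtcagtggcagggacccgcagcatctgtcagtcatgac
Pold1 promoter, chr7:44548766-44549065, minus strand: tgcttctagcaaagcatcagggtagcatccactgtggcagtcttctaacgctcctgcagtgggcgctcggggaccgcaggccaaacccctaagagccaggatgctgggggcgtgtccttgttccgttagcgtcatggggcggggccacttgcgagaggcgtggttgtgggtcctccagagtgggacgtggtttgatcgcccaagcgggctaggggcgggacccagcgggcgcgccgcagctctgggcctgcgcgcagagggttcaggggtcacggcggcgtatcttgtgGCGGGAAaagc
Cdc20 promoter, chr4:118437294-118437593, minus strand: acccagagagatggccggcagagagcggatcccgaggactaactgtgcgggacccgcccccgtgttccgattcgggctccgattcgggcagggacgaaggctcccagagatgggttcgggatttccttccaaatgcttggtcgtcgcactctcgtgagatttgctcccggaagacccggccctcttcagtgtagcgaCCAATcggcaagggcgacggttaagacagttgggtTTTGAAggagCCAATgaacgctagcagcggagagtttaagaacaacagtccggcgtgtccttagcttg
Plk1 promoter, chr7:122159185-122159484, plus strand: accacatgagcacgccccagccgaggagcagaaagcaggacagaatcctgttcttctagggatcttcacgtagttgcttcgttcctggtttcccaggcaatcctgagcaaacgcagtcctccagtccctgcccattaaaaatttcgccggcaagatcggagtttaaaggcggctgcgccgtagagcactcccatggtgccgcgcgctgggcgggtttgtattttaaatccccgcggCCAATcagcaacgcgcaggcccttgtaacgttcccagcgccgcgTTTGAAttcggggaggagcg
Cdt1 held 2 E2F-type matches and Pold1 held 1, neither with a CHR-type or CCAAT match. Mcm2 held no E2F-type match, with 1 CHR-type and 1 CCAAT match, the kinds also found in Cdc20 (1 CHR-type and 2 CCAAT) and Plk1 (1 of each). Rfc5 held no match to any of the 3 motifs in this window. The licensing pair and the fork pair thus each held unlike promoters. A gene with several promoters (Lig1, Fen1 and Mcm7 among the members) was counted where any of them matched. Over genes, an E2F-type match was present in 22 of 36 (61.1%) of the replication and mitosis genes with a promoter and in 10.9% of all 27025 genes with one. By role it was present in 7 of 9 licensing genes, 10 of 13 fork genes, 2 of 4 nucleotide supply genes and 3 of 10 mitotic genes. A CHR-type match was present in 9 of 10 mitotic genes, 3 of 9 licensing genes, 2 of 13 fork genes and 0 of 4 nucleotide supply genes, 14 of 36 in all (38.9%), beside 21.7% of all genes. CCAAT was present in 10 of 10 mitotic genes and in 27 of all 36 (75.0%), beside 41.1% of all genes. Matches to different E2F-type motifs can overlap each other, and a TTGGCGC match can overlap CCAAT on the other strand. The matches describe these letters only.

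The first days of differentiation gave smaller differences. At day 3 against day 0, 0 of the 44 genes passed with limma (5 at an unadjusted p under 0.05), where 6.04% of all genes passed, and the median difference was -0.02. At day 6, 0 passed (14 at an unadjusted p under 0.05), where 8.68% of all genes passed, and the median was -0.17, beside 0.07 over all genes. With culture as a replicate block, 1 gene rose at day 3 (5.32% of all genes rose), Fen1, the nuclease that trims lagging strand flaps, by 0.40 (limma adjusted p = 0.0454), and 0 fell (4.32% of all genes fell). In the same fit of day 6, 3 rose (Cdc6, Rpa3 and Rrm1, where 9.57% of all genes rose) and 2 fell (Mcm3 and Pole, where 6.05% of all genes fell). At day 3 the count was 5 without hairpin B day 0 (8.73% of all genes passed) and 4 without hairpin B day 9 (15.9%). At day 6 it was 14 without hairpin B day 9 (29.7% of all genes), 3 without hairpin B day 6 (11.6%) and 1 without hairpin A day 9 (10.4%) or hairpin B day 0 (7.67%). The day 3, day 6 and day 9 differences share the day 0 libraries, so they are not independent of each other.

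Without the hairpin B libraries of days 6 and 9, many more of these genes passed at each day, as did many more of all genes. At day 9, 23 of 44 fell and 4 rose, where 24.5% of the 13994 genes tested fell and 35.6% rose. The falls then took in Pold1 (-1.12, SE 0.13, limma adjusted p = 0.000186), Rpa1 (-0.81, SE 0.14, limma adjusted p = 0.00137), Pole, Pola1, Mcm7, Mcm10, Rrm2, Aurkb, Bub1b, Ccnb1 and Ccnb2 beside the 12 genes above. The genes that rose were Gins3 (0.61), Rfc2 (0.29), Rfc3 (0.78) and Rrm1 (0.61), so the opposite signs of Rfc3 and Rfc5 and of Rrm1 and Rrm2 each passed the test in this fit. At day 6, 17 fell (18.9% of all genes fell) and 9 rose (27.4% of all genes rose), and at day 3, 2 fell (12.6% of all genes) and 5 rose (14.5% of all genes). The day 3 gains were Cdc20 (0.27), Cdc6 (0.30), Fen1 (0.40), Plk1 (0.42) and Rfc3 (0.38), and the day 3 falls were the B-type cyclins Ccnb1 (-0.35) and Ccnb2 (-0.34). Genes in this paragraph were picked after their values were seen.

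**Figure D3:**
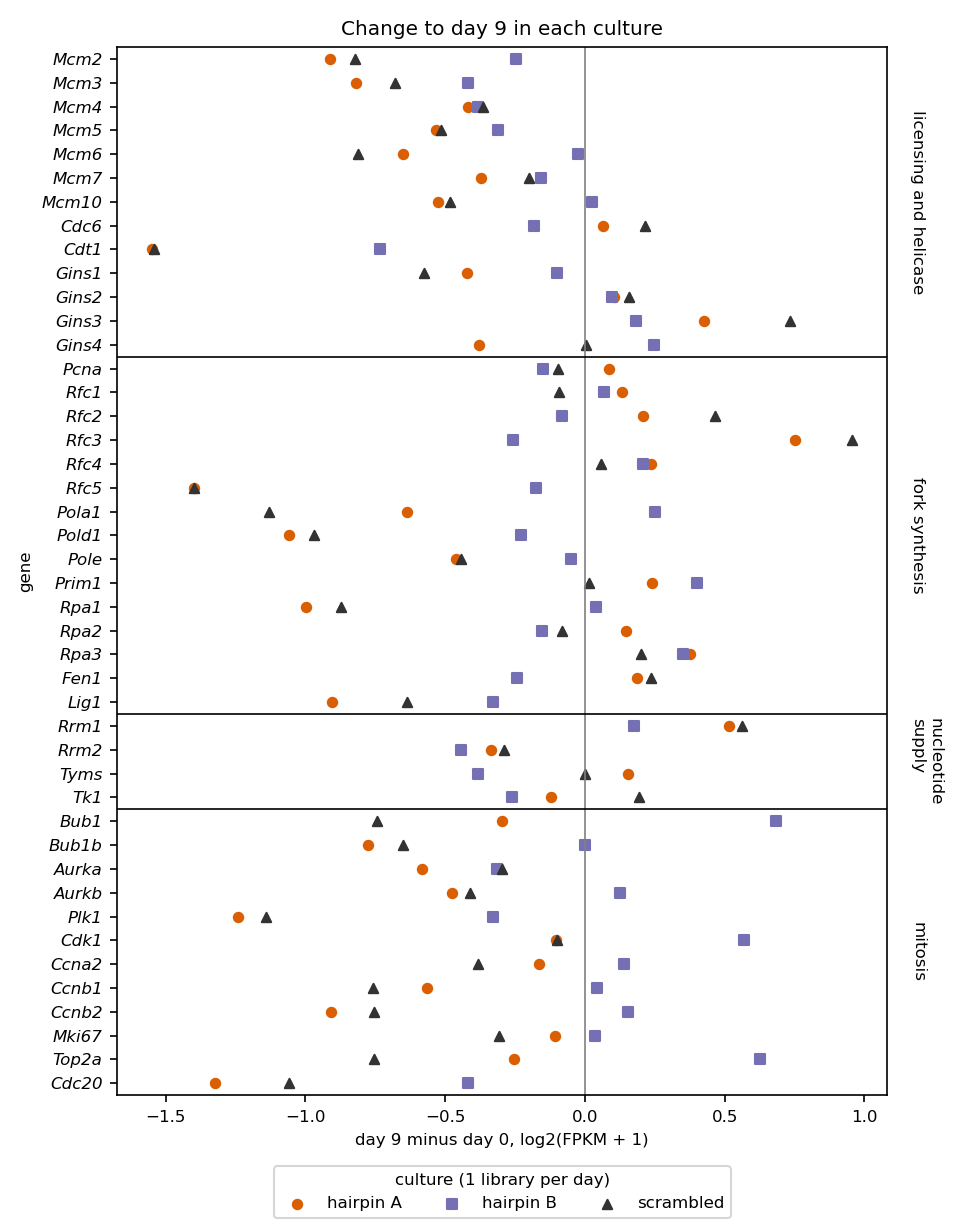
Day 9 minus day 0 on the log2(FPKM + 1) scale for each of the 44 genes (rows, by role), 1 point per culture, with the vertical line at 0. All 12 mitotic genes are below 0 in hairpin A and in scrambled cells, and in hairpin B 9 of the 12 are above 0. Of all 14108 genes tested (not drawn), 6284 were below 0 in hairpin A, 5888 were below 0 in scrambled cells and 7680 were above 0 in hairpin B.

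Culture by culture, hairpin A and scrambled cells had like medians and the median of hairpin B cells was near 0. The median of the 44 genes at day 9 minus day 0 was -0.38 in hairpin A, -0.07 in hairpin B and -0.37 in scrambled cells, beside 0.10, 0.04 and 0.15 over all genes tested. For the 12 mitotic genes it was -0.52 in hairpin A, 0.09 in hairpin B and -0.70 in scrambled cells. In the same order 12, 3 and 12 of them were below 0, as were 6284, 6363 and 5888 of all 14108 genes tested. At day 0, hairpin B minus scrambled cells had a median of -0.05 over the 44 genes and 0.02 for the 13 licensing genes. The mitotic genes of hairpin B already differed there, in 1 library per culture. Their median was -0.32 against scrambled cells and -0.26 against hairpin A, with 10 of 12 below 0 in each. Of all genes tested, 7016 and 7277 were below 0 in these comparisons. At day 9 the same medians of the mitotic genes of hairpin B were 0.43 (10 of 12 above 0) and 0.28 (11 of 12 above 0). Of all genes tested, 6290 and 6562 were above 0 then. What part the day 0 levels have in the day 9 minus day 0 values of hairpin B was not tested. For the 13 licensing genes the median of day 9 minus day 0 was -0.42 in hairpin A, -0.16 in hairpin B and -0.48 in scrambled cells. Of the 44 genes, 14 had all 3 day 9 libraries below all 3 day 0 libraries, as had 11.5% of all genes tested, and 3 (Gins3, Prim1 and Rpa3) had all 3 above, as had 19.5% of all genes. The 14 were the called genes except Cdt1, together with Mcm7, Pole and Rrm2.

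The comparison of both hairpins with the scrambled hairpin asked whether depletion of Braveheart altered these genes. No member passed on any day with limma, and no member had an unadjusted p under 0.05. All genes passed at 0.0213% on day 0, 0.0284% on day 3, 0.0425% on day 6 and 0.0354% on day 9. The scrambled group has 1 library per day, so its spread was taken to be that of the hairpin pairs. These pairs include the hairpin B libraries of days 6 and 9. Their pluripotency sums were 4561 and 7244 FPKM, against 1250 and 884 FPKM in hairpin A. The gap between the hairpins enters the standard errors of every day, so the lack of calls does not show that depletion left these genes unchanged. Median differences of the 44 genes lay between -0.03 (day 3) and 0.09 (day 9). At day 9 the largest difference was that of Cdt1, 0.92 (SE 0.59, limma adjusted p = 0.873), and the hairpins did not share it: hairpin A stood at 0.26 and hairpin B at 1.59 above scrambled cells. At day 0 the largest was that of Top2a, -0.67 (SE 0.28, limma adjusted p = 1.00). Counted by size on the log2(FPKM + 1) scale at day 9, hairpin A held 0 of the 44 genes at least 1.5-fold above scrambled cells and 0 as far below, where 1.23% and 3.56% of all genes were. Hairpin B held 8 above (Cdt1, Rfc5, Pold1, Pola1, Rpa1, Plk1, Ccnb2 and Cdc20), where 18.8% of all genes were, and 2 below (Rfc3 and Rrm1), where 25.7% of all genes were. Gins3, at 9.08 FPKM in hairpin B and 14.1 FPKM in scrambled cells, passed that fold only before 1 was added (ratio 0.644). The share of members above is near that of all genes, and the share below is under it. In hairpin B, the pluripotency sum of 7244 FPKM against 749 FPKM in scrambled cells moved with these differences, and its part in them was not tested. In hairpin A, the same sum was 884 FPKM, and the largest difference of a member from scrambled cells at day 9 was 0.38 (Pola1). The level of Braveheart itself was not analysed here.

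In the discovery set, most genes of replication and mitosis were several-fold higher in mESC and in partially reprogrammed cells than in fibroblasts. With edgeR's quasi-likelihood test, 32 of the 44 genes were higher and 0 lower in mESC than in MEF, where 13.2% of all 16773 genes tested were higher. The median log2 difference of the 44 was 2.20, beside 0.19 over all genes, and all 44 were above 0. Partially reprogrammed lines had 27 of the 44 higher than MEF and 0 lower, where 4.95% of all genes were higher, with a median of 2.05 beside 0.15 over all genes. In TPM, MEF was below each of the 7 other libraries for 42 of the 44 genes, as it was for 31.0% of all genes, the exceptions being Gins3 and Rrm1. Both comparisons share the single MEF library, whose spread was taken to be that of the groups with a pair of libraries. The 8 fibroblast markers (all measured, none at 0) summed to 15966 TPM in MEF, against 220 TPM in miPS, 144 to 259 TPM in the mESC libraries and 10.4 to 21.9 TPM in the partially reprogrammed lines. The 6 pluripotency markers, of which Oct4 (Pou5f1) and Sox2 were also introduced by retrovirus, summed to 7082 and 7460 TPM in the partially reprogrammed lines, above the 3266 to 5679 TPM of the mESC libraries, and to 5.35 TPM in MEF. How fast the MEF were dividing, and what part that has in these differences, was not tested.

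**Figure D4:**
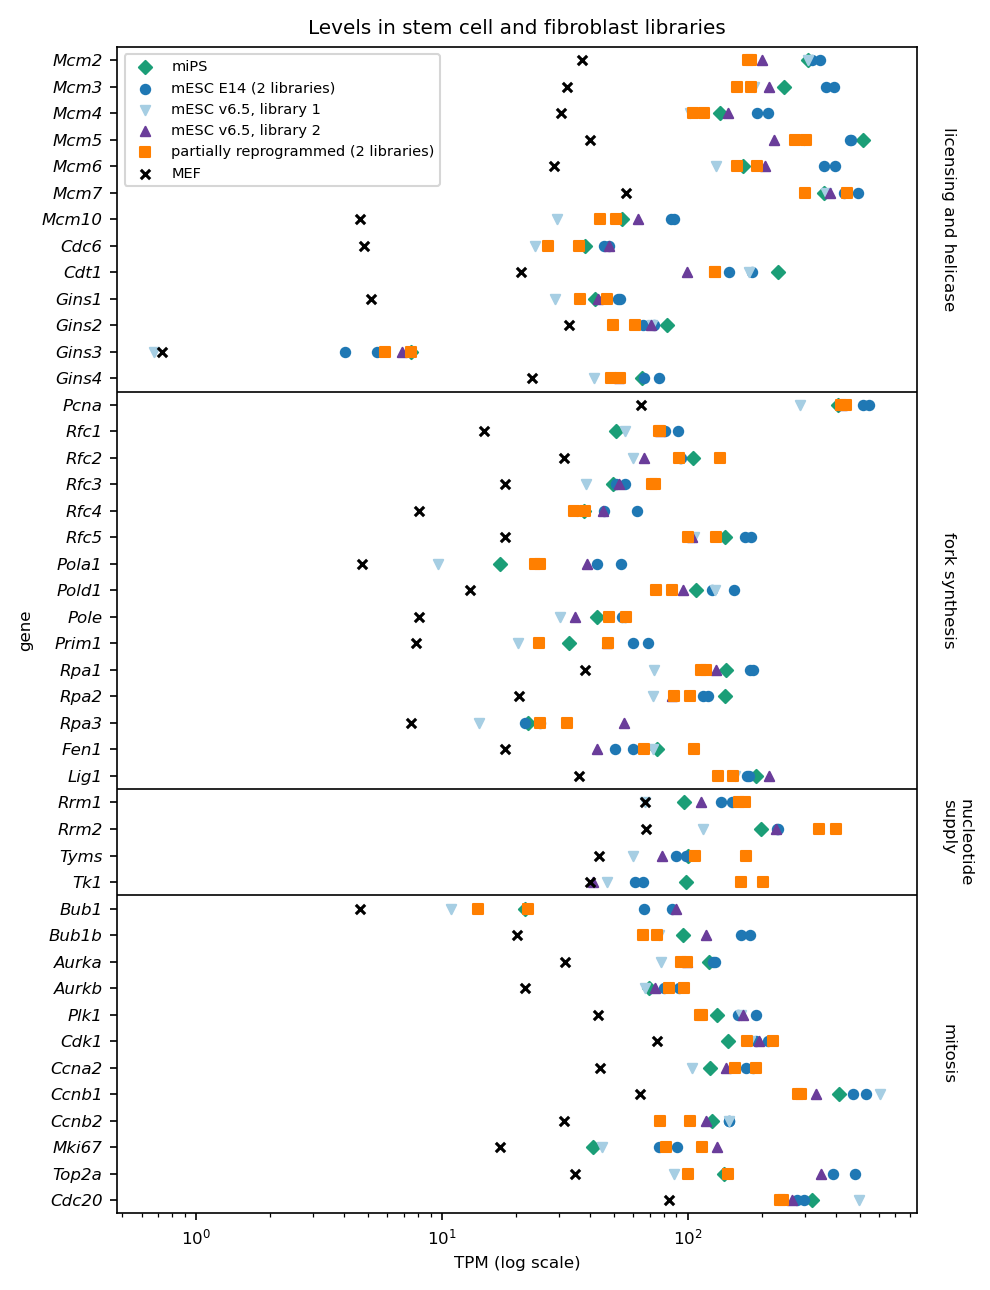
TPM of the 44 genes (rows, by role) in the 8 discovery libraries on a log axis, 1 mark per library. The cross of MEF lies left of the other marks for 42 genes, and v6.5 library 1 lies far from v6.5 library 2 for Bub1, Top2a, Pola1, Rpa3 and Gins3.

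Licensing genes had the largest median difference from fibroblasts, with 10 of 13 higher in mESC (median 2.66) and 10 of 13 higher in the partially reprogrammed lines (median 2.42). Mcm10, which helps to start the helicase, had 54.0 TPM in miPS, 85.5 and 87.6 TPM in E14, 29.3 and 62.5 TPM in v6.5, 43.8 and 51.1 TPM in the partially reprogrammed lines and 4.63 TPM in MEF. All 7 other libraries were well above MEF. The log2 differences from MEF were 3.50 for mESC (SE 0.47, edgeR adjusted p = 0.00498) and 3.25 for the partially reprogrammed lines (SE 0.47, edgeR adjusted p = 0.00931). Gins1, a GINS subunit, had 42.1 TPM in miPS, 51.9 and 53.2 TPM in E14, 28.9 and 43.2 TPM in v6.5, 36.5 and 46.8 TPM in the partially reprogrammed lines and 5.15 TPM in MEF. Its differences from MEF were 2.95 for mESC (SE 0.42, edgeR adjusted p = 0.00597) and 3.01 for the partially reprogrammed lines (SE 0.44, edgeR adjusted p = 0.00913). Gins2 and Gins4 did not pass in either comparison (0.81 and 0.99 for mESC), nor did Gins3, which rested on 3 reads in MEF and 3 reads in v6.5 library 1.

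Fork genes followed, with 11 of 15 higher in mESC (median 2.32) and 10 of 15 higher in the partially reprogrammed lines (median 2.17). Pold1 had 108 TPM in miPS, 154 and 125 TPM in E14, 129 and 96.0 TPM in v6.5, 86.1 and 74.1 TPM in the partially reprogrammed lines and 13.1 TPM in MEF. The mESC, the partially reprogrammed lines and MEF did not overlap, and Pold1 differed from MEF by 2.99 in mESC (SE 0.49, edgeR adjusted p = 0.00883) and by 2.50 in the partially reprogrammed lines (SE 0.49, edgeR adjusted p = 0.0241). Pola1 had a difference as large, 2.87 in mESC, but a wide error (SE 0.92, edgeR adjusted p = 0.0610), with 17.3 TPM in miPS, 42.8 and 53.3 TPM in E14, 9.63 and 38.9 TPM in v6.5, 25.2 and 23.9 TPM in the partially reprogrammed lines and 4.75 TPM in MEF.

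Mitotic genes were higher in mESC for 10 of 12 (median 1.79) and in the partially reprogrammed lines for 5 of 12 (median 1.73). Top2a had 140.1 TPM in miPS, 390.4 and 478 TPM in E14, 87.8 and 350 TPM in v6.5, 101 and 145 TPM in the partially reprogrammed lines and 34.7 TPM in MEF, and it differed between mESC and MEF by 2.92 (SE 0.73, edgeR adjusted p = 0.0318). Bub1 had 21.8 TPM in miPS, 66.2 and 86.7 TPM in E14, 10.9 and 89.4 TPM in v6.5, 13.98 and 22.4 TPM in the partially reprogrammed lines and 4.64 TPM in MEF, and its difference of 3.43 did not pass (SE 1.15, edgeR adjusted p = 0.0688). For both genes v6.5 library 1 lay below both partially reprogrammed lines, while v6.5 library 2 lay near E14.

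**Figure D5:**
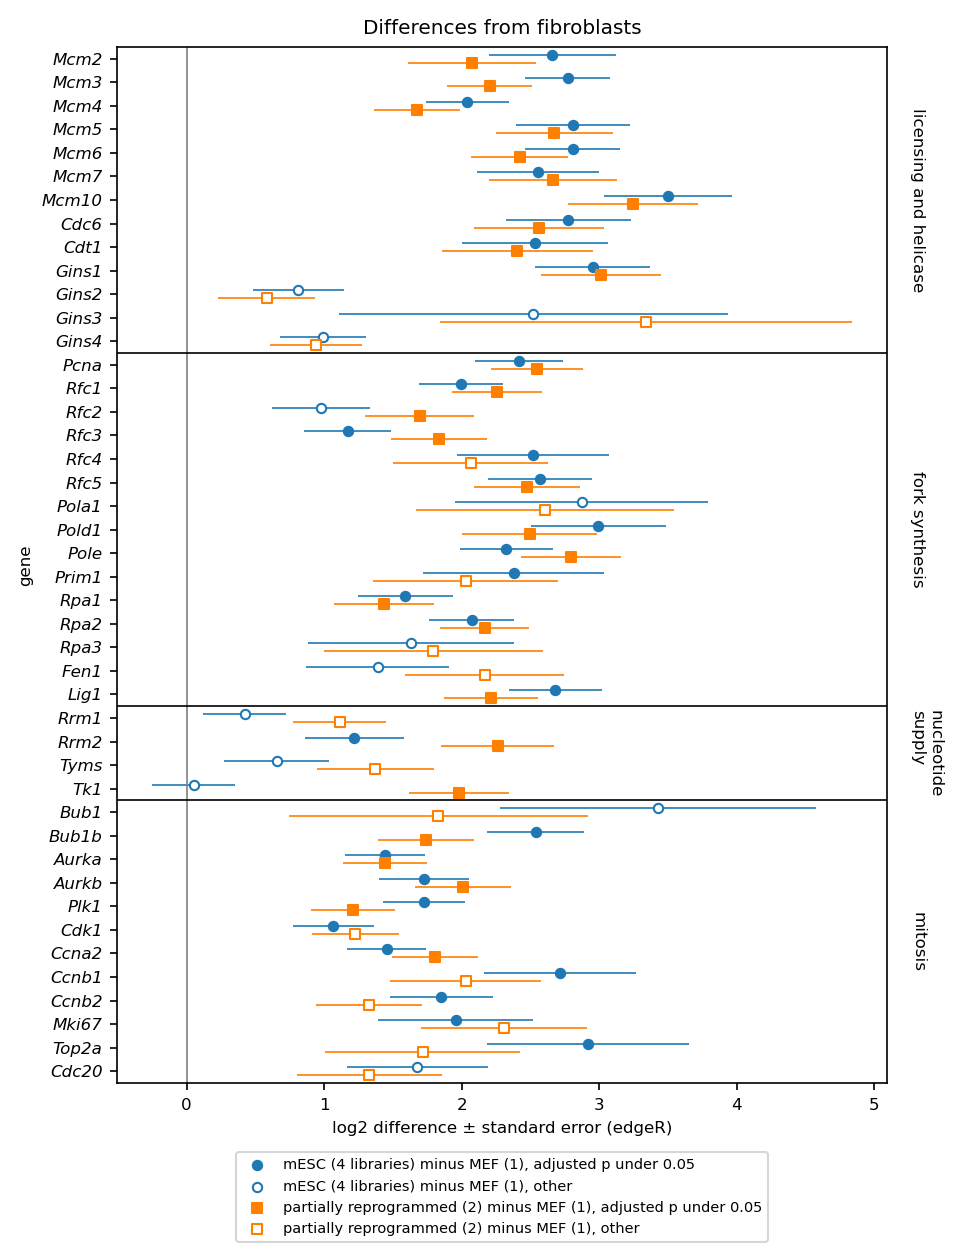
Log2 differences from MEF for the 44 genes (rows, by role), circles for mESC and squares for partially reprogrammed lines, filled where the edgeR adjusted p was under 0.05. Bars give standard errors worked back from the F statistic of the edgeR test. All marks lie above 0, and for Tk1 and Rrm2 the square stands far right of the circle.

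Nucleotide supply genes had the smallest medians, with 1 of 4 higher in mESC than in MEF (median 0.54) and 2 of 4 in the partially reprogrammed lines (median 1.68). Tk1, the salvage enzyme, had 98.2 TPM in miPS, 66.0 and 60.9 TPM in E14, 46.8 and 41.3 TPM in v6.5, 165 and 203 TPM in the partially reprogrammed lines and 40.1 TPM in MEF. All 4 mESC libraries lay above MEF in TPM, by least in v6.5, while the fit on TMM-scaled counts gave a difference of 0.05 (SE 0.30, edgeR adjusted p = 0.912). Both partially reprogrammed lines were far above MEF. Rrm2 had 199 TPM in miPS, 231 and 234 TPM in E14, 115 and 228 TPM in v6.5, 342 and 399 TPM in the partially reprogrammed lines and 67.9 TPM in MEF, and it differed between mESC and MEF by 1.22 (SE 0.36, edgeR adjusted p = 0.0499). Tyms had 100.3 TPM in miPS, 89.4 and 98.1 TPM in E14, 59.7 and 78.7 TPM in v6.5, 173 and 107 TPM in the partially reprogrammed lines and 43.4 TPM in MEF, and passed in neither comparison.

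Set directly against each other, mESC and the partially reprogrammed lines differed in 3 of the 44 genes. Bub1b, a spindle checkpoint protein, had 165 and 180 TPM in E14, 76.1 and 119 TPM in v6.5 and 65.8 and 75.3 TPM in the partially reprogrammed lines. It was higher in mESC by 0.80 (SE 0.23, edgeR adjusted p = 0.0472), where 16.1% of all genes were higher. Tk1 and Rrm2 were lower in mESC by log2 differences of -1.93 (SE 0.22, edgeR adjusted p = 0.00301) and -1.04 (SE 0.25, edgeR adjusted p = 0.0257), where 13.6% of all genes were lower. All 4 nucleotide supply genes were below 0, and the median of the 44 genes was 0.11, beside 0.05 over all genes. The retroviral factors of the partially reprogrammed lines and their growth without feeders go with this comparison and cannot be told apart from the state of the cells.

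Between the pluripotent lines few members came near the threshold. Between miPS and mESC, 0.0298% of all genes passed with edgeR and 1.06% with DESeq2. Of the 44 genes, 0 passed with either tool (2 at an unadjusted p under 0.05 with edgeR). The nearest to passing was Tk1, with 98.2 TPM in miPS and 53.7 ± 11.6 TPM in mESC (SD, n = 4), a log2 difference of 1.01 (SE 0.28, edgeR adjusted p = 0.454). Between E14 and v6.5, 0.489% of all genes passed with edgeR and 6.78% with DESeq2. Of the 44 genes, 0 passed with edgeR (4 at an unadjusted p under 0.05) and 1 with DESeq2. The median difference was 0.33, with 34 of 44 above 0, beside a median of -0.05 over all genes. The v6.5 libraries lay apart: the TPM ratio of library 1 to library 2 ran from 0.0972 (Gins3) to 1.87 (Cdc20). For Bub1 that ratio was 0.122 and for Top2a 0.251. What part v6.5 library 1 has in the median was not tested. The lowest adjusted p was that of Mcm6, with 358 and 398 TPM in E14 and 130.0 and 206 TPM in v6.5 (log2 difference 0.97, SE 0.25, edgeR adjusted p = 0.133). Without v6.5 library 2, 10 were higher and 1 lower in E14, where 26.3% of all genes passed in either direction.

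The counts against MEF moved with single libraries. Against MEF, mESC had 18 genes higher without E14 library 1 (3.77% of all genes were higher) and 17 without E14 library 2 (3.62%). The partially reprogrammed lines had 12 genes higher without line 11.3 (2.40% of all genes), 14 without line 11.5 (3.04%), 8 without either E14 library (at most 1.31%), and 43 without v6.5 library 1 (14.3%) or library 2 (14.8%). Between mESC and the partially reprogrammed lines, 1 gene passed without either E14 library or either partially reprogrammed library (11.8% to 14.1% of all genes). In that comparison 12 passed without v6.5 library 1 (51.4% of all genes) and 15 without v6.5 library 2 (42.4%). The counts of all genes moved the same way as those of the members in each of these fits. Where a partially reprogrammed library was left out, the lone one was assumed to vary like the other groups.

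Among 54 further genes of the same pathways, 13 fell and 2 rose at day 9, where 6.22% of all genes fell and 10.3% rose. At day 6, 3 fell (3.71% of all genes fell) and at day 3, 1 fell (2.78%), which is near the share of all genes. In the discovery set 42 of the 54 were higher in mESC than in MEF (13.2% of all genes) and 28 of the 54 in the partially reprogrammed lines (4.95% of all genes), and medians were 2.09 and 1.95. The largest differences in both sets were those of Mybl2, a transcription factor of dividing cells, which stood at -2.12 at day 9 (SE 0.71, limma adjusted p = 0.0636) and at 4.66 in mESC against MEF (SE 0.44, edgeR adjusted p = 0.00219). The smallest were those of Pold3, a polymerase delta subunit, at 0.00 at day 9, and of Birc5, survivin of the chromosomal passenger complex, at 0.16 in mESC against MEF (SE 0.37, edgeR adjusted p = 0.756).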

How the data were processed

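Poly(A) RNA was sequenced from 12 time course and 8 discovery libraries, and, per the submitters' processing notes, reads were handled with TopHat 1.14, TopHat 1.3, Bowtie 0.12.7, Cufflinks 1.3.0 and RSEM on mm9. The time course table holds FPKM values as deposited by the authors, with a status per value, and the bounds beside them were not used. The discovery table holds RSEM expected counts and TPM as deposited by the authors, and 58.0% of the expected counts were whole to within 1e-09 reads. Counts were rounded before testing, and 343 entries had no values. FPKM and TPM hide depth, so the time course depth is relative.

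From the FPKM, log2(FPKM + 1) was tested with limma 3.58.1 (trended eBayes, R 4.3.3) for genes at 1 FPKM or more in at least 2 libraries. The day fit used day and hairpin or scrambled, with 7 residual degrees of freedom, and the hairpin fit used 8 groups, with 4. From the counts, edgeR 4.0.16 (quasi-likelihood, TMM, at least 1 CPM in 2 libraries) fitted 5 groups with 3 residual degrees of freedom, and DESeq2 1.42.0 was an alternative. The SE given with edgeR is the absolute log2 difference divided by the square root of the F statistic of its test. All 44 genes passed both filters. The Benjamini-Hochberg adjustment ran over all genes tested, with a threshold of 0.05, and the scripts were tested on simulated data. The members, roles and further lists were chosen with earlier results of these data known.

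In each role, values per library were given by rule for the pair of genes with the largest fall and the gene with the smallest difference at day 9, and for the pair with the largest difference of mESC from MEF. Other genes were named after their values were seen. The time course titles give a hairpin and a day, and the libraries of a hairpin were taken as 1 culture over days. Deviations from the day means correlated with a median r of 0.101 within such a culture (from -0.0910 to 0.642, 18 pairs). Between different cultures the median r was -0.0308 (from -0.506 to 0.320, 36 pairs). Alternatives were other pseudocounts, filters, scalings and tools, the culture block and leaving out libraries. Antisense overlap cannot be told apart in these values, since no source used here states strand use.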

Additional observations from a re-analysis of the deposited data

Results flagged for a closer look

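The change of Tk1, thymidine kinase, from day 0 to day 9 had one sign in both hairpin cultures and the other in scrambled cells: -0.12 in hairpin A, -0.26 in hairpin B and 0.19 in scrambled cells on the log2(FPKM + 1) scale. The mean of the hairpins minus scrambled was -0.39. The change of Rfc1, the large subunit of the clamp loader, was 0.13 in hairpin A, 0.07 in hairpin B and -0.09 in scrambled cells, and the mean of the hairpins minus scrambled was 0.19. Both were flagged because every hairpin culture moved one way and the scrambled culture, a single one, the other way. The share of all genes with such a pattern is not given here, so the pattern is not shown to be unusual. These sign differences were not tested gene by gene, and in the limma fit of the change of the hairpin difference between day 0 and day 9 none of the 44 genes passed or had an unadjusted p under 0.05 (smallest adjusted p 1.00 after rounding).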

How the results depend on the processing

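The counts of called genes depend on which libraries enter. Leaving out each library in turn gave 0 to 25 called genes at day 9 (12 in all libraries), 0 to 5 at day 3 and 0 to 14 at day 6 (0 in all libraries at each), 17 to 39 for mESC against MEF, 8 to 43 for partially reprogrammed lines against MEF, 1 to 15 for mESC against partially reprogrammed lines and 0 to 11 for E14 against v6.5. Without both late hairpin B libraries 7 genes passed at day 3, 26 at day 6 and 27 at day 9. The shares of all genes were 27.2%, 46.3% and 60.1%. Without a filter on low values 1, 2 and 5 passed at days 3, 6 and 9 (3.67%, 4.10% and 5.51% of all genes). With median ratio scaling 1 passed at day 3 (6.07% of all genes) and 2 passed at day 6 (8.69%). Leaving out loci under 300 bp gave 1 at day 6 (9.84% of all genes). With culture as a replicate block 1, 5 and 17 passed at days 3, 6 and 9 (9.64%, 15.6% and 29.9% of all genes). For mESC against partially reprogrammed lines, 5 passed with DESeq2 (33.4% of all genes) and 5 without a filter on low counts (21.5%). For E14 against v6.5, 1 passed with DESeq2 (6.78% of all genes) and 0 with the replicate number as a block (0.680%). Same-numbered libraries correlated with r = 0.320 and share only a number. DESeq2 gave 35 for mESC and 34 for partially reprogrammed lines against MEF, where 34.0% and 19.7% of all genes passed in either direction. The DESeq2 size factors moved the median of all genes by -0.112 in the second comparison. The hairpin comparisons and miPS against mESC stayed at 0 in every alternative run.

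Signs turned for genes with small differences at day 9. Cdc6 stood at -0.0723 with median ratio scaling, which moved the median of all genes by -0.0996, about as far as Cdc6. In other fits it ran from -0.0301 to 0.14 over libraries left out in turn (below 0 without scrambled day 0, scrambled day 9 or hairpin A day 9). Over the same fits Rpa2 ran from -0.17 to 0.12, Tyms from -0.19 to 0.0733, Tk1 from -0.15 to 0.0259 and Bub1 from -0.38 to 0.10. Without both late hairpin B libraries Tyms stood at 0.0797 and Tk1 at 0.0227. Of the other values of named genes, 215 kept sign and side of the threshold, 54 lost the call and 14 gained it. Where counts or signs moved with another setting, the cause was not tested. With 1 MEF, 1 miPS and 1 scrambled library per day, no spread could be measured in those groups.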
